A study of Rattus norvegicus with 6 samples.

Results

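The gene Cplx2 encodes complexin 2, and it is described here with the DNA on either side of its transcript start in rat dorsal root ganglia (DRG). Its members are the 5 CpG rows that the deposited annotated table assigns to the Cplx2 transcript NM_053878, out of 32674 annotated sites, and all sites on chromosome 17 from position 16300000 to 16430000 (rn4) with at least 10 reads in every library. The region holds 54 such sites, the 5 annotated rows among them, out of 424646 sites of this depth in the nuclear genome. Cplx2 was chosen by the SNL against Sham difference in methylation at its annotated sites, so the differences at its sites are a description. Where calls of a fit over all sites or the authors' q-values are given for them, they are not evidence of a difference. Ganglia of adult male Sprague-Dawley rats (8 to 9 weeks, about 220 g) were taken 3 weeks after surgery. In the SNL group the left L5 and L6 spinal nerves had been ligated tightly (3 libraries). The Sham group had sham surgery with no ligation, on the other side (3 libraries), and whether libraries of both groups came from the same animals is not given in the sources used here. Nor is it given whether a library is 1 animal or a pool, and p-values then measure only how far these libraries spread, which may be a technical spread. Summed CpG coverage was 29420922 to 34293779 in the SNL libraries and 27247702 to 32243538 in the Sham libraries. In this and all other sums over sites, a read counts once at each CpG it covers.

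Complexins are small soluble proteins that bind the assembled SNARE complex, the bundle of syntaxin, SNAP-25 and synaptobrevin that pulls a vesicle onto the plasma membrane. They hold primed vesicles back and aid their fast fusion when calcium binds synaptotagmin. Complexin 1 and complexin 2 are the main forms at conventional synapses, while complexin 3 and complexin 4 are known from ribbon synapses of the retina. Methylation of a CpG cytosine is usual in most of the mammalian genome and usually absent from CpG-dense stretches at gene starts. Reduced representation bisulfite sequencing (RRBS) cuts DNA at CCGG with MspI and reads the fragment ends, so each value is the percent of reads that kept a C. A whole ganglion holds neurons, satellite glia, Schwann cells, immune cells and connective tissue, and a value averages over them.

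The sequence around the start sets what RRBS can read there, so the promoter windows of Cplx2 and of its closest relative Cplx1 are shown (RefSeq, GRCr8, 250 bases before to 50 after the start, capitals mark CG). The Cplx2 window is chr17:10236704-10237003 on the minus strand and the Cplx1 window is chr14:1328823-1329122 on the plus strand, in coordinates of GRCr8 and not of rn4.
Cplx2: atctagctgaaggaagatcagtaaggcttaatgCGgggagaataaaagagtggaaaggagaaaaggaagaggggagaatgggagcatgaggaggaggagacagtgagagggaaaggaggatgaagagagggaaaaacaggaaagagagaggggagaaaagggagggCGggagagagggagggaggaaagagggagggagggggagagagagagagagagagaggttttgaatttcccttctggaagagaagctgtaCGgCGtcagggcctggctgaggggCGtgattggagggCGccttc
Cplx1: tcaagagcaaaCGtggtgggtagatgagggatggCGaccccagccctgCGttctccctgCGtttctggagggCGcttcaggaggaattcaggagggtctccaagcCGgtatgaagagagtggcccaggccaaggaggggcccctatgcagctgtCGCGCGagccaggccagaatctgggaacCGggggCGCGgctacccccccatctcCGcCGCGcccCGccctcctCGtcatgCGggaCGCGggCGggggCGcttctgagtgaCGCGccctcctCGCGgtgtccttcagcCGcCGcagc
The Cplx2 window holds 6 CG and 0 CCGG, and the Cplx1 window 28 CG and 2 CCGG. CCGG, which reads the same on both strands, was found in 51.4% of the 33469 promoter windows of the table, and the median window holds 7 CG. In the files 0 positions were listed in any library from 250 bases before to 50 after the Cplx2 start of the annotated table (position 16322937, minus strand). The sites next to the start thus begin 487 bases inside the transcript. RefSeq lists 5 transcripts of Cplx2, 1 curated and 4 predicted, and the distances given here refer to the start of the curated one as the authors' table places it. Where the predicted transcripts start on rn4 was not analysed here, so a site called upstream may lie inside one of them.

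Across the region, methylation in Sham ganglia took the form of a methylated background with 2 unmethylated stretches. Of the 54 sites, 22 had a Sham mean over 80%, 15 lay between 20% and 80% and 17 under 20%. Over all sites of this depth these classes made up 49.3%, 27.2% and 23.5%. The first unmethylated stretch lay just inside the gene. Its 12 sites, 0.5 to 0.9 kb downstream of the start, averaged 7.09%, 5.41% and 4.30% in SNL 1 to 3 and 2.65%, 3.73% and 7.20% in Sham 1 to 3. These libraries overlapped (5.60% ± 1.40 after SNL and 4.53% ± 2.37 in Sham, SD, n = 3 libraries). Single sites of this stretch averaged 1.08% to 14.1% over the 6 libraries, at 11 to 33 reads each. A further 9 positions of the stretch were listed in every library but missed the depth minimum. Of their read counts, summed over positions, 1 of 263 was methylated after SNL and 2 of 207 in Sham.

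Farther inside and upstream the DNA was methylated. The 12 sites from 10.1 to 22.3 kb downstream of the start averaged 80.6% ± 2.2 after SNL and 83.0% ± 3.8 in Sham (SD over 3 libraries). Of these 12, 9 had a lower mean after SNL, as did 53.7% of all sites of this depth. The lowest levels of the 12 were at the CpG 10.2 kb inside (position 16312778), at 44.4% ± 9.6 and 52.3% ± 21.6. Its neighbour at 16312794 read 66.7%, 61.5% and 62.5% after SNL against 87.5%, 76.0% and 78.6% in Sham, at 14 to 26 reads. The groups did not overlap at the latter site, although at 14 reads a single read is worth 7.14 points. All SNL libraries were also below all Sham libraries at 16305976 (88.7% ± 8.4 against 100%, 12 to 30 reads) and 16306156 (88.5% ± 1.8 against 94.8% ± 1.0, 23 to 47 reads). From 13.3 to 40.4 kb upstream, 12 sites averaged 85.0% ± 2.4 after SNL and 85.8% ± 2.4 in Sham, with 6 lower and 6 higher.

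**Figure D1:**
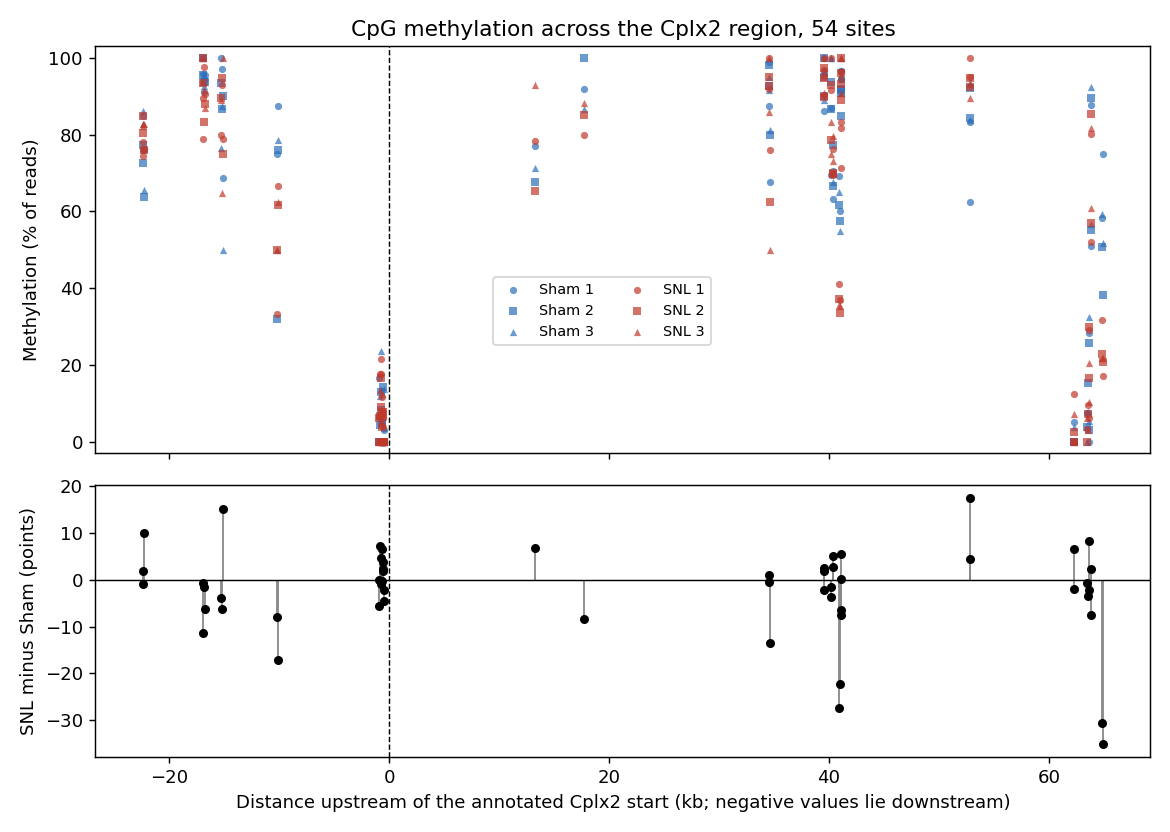
Methylation of the 54 sites of the Cplx2 region in each of the 6 libraries (upper panel, percent of reads) and the difference of the group means in percentage points (lower panel), against the distance upstream of the annotated start in kb. Levels are lowest just inside the start and again 62.3 to 63.6 kb upstream, and the largest losses after SNL stand at 41 kb and 64.9 kb upstream.

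The values that chose this gene come from 2 CpGs 41 kb upstream, 26 bp apart. At position 16363892 methylation was 40.9%, 37.1% and 35.7% in SNL 1 to 3 and 69.1%, 61.6% and 65.0% in Sham 1 to 3. Every SNL library was lower than every Sham library, and the difference of the means was -27.4 points (SE 2.7, n = 3 per group). At position 16363918 it was 36.8%, 33.6% and 35.4% after SNL against 60.0%, 57.5% and 54.8% in Sham. The difference there was -22.2 points (SE 1.8), again with no overlap. In each of the 6 libraries the second CpG was less methylated than the first.

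The immediate surroundings of this pair kept a higher and unequal level. The CpG 40.4 kb upstream at position 16363302, which is also in the annotated table, read 69.6%, 69.7% and 73.2% after SNL and 70.4%, 66.7% and 67.6% in Sham (111 to 165 reads). Its other strand, position 16363303, stood at 75.3% ± 4.8 after SNL and 70.3% ± 7.0 in Sham (SD over 3 libraries; 37 to 87 reads). On the far side of the pair, position 16364022 read 96.4%, 96.2% and 100% against 94.4%, 90.9% and 90.9% (20 to 36 reads). The 6 sites from 41.1 to 52.8 kb averaged 92.4% ± 3.8 after SNL and 90.1% ± 2.6 in Sham. Among the 8 sites from 40.4 to 41.1 kb, the pair alone had all SNL libraries below all Sham libraries. At position 16364022 all SNL libraries were above, and at the other 5 the groups overlapped. In the shallowest library a single read was worth 0.901 points at position 16363302 but 9.09 points at position 16364063.

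**Figure D2:**
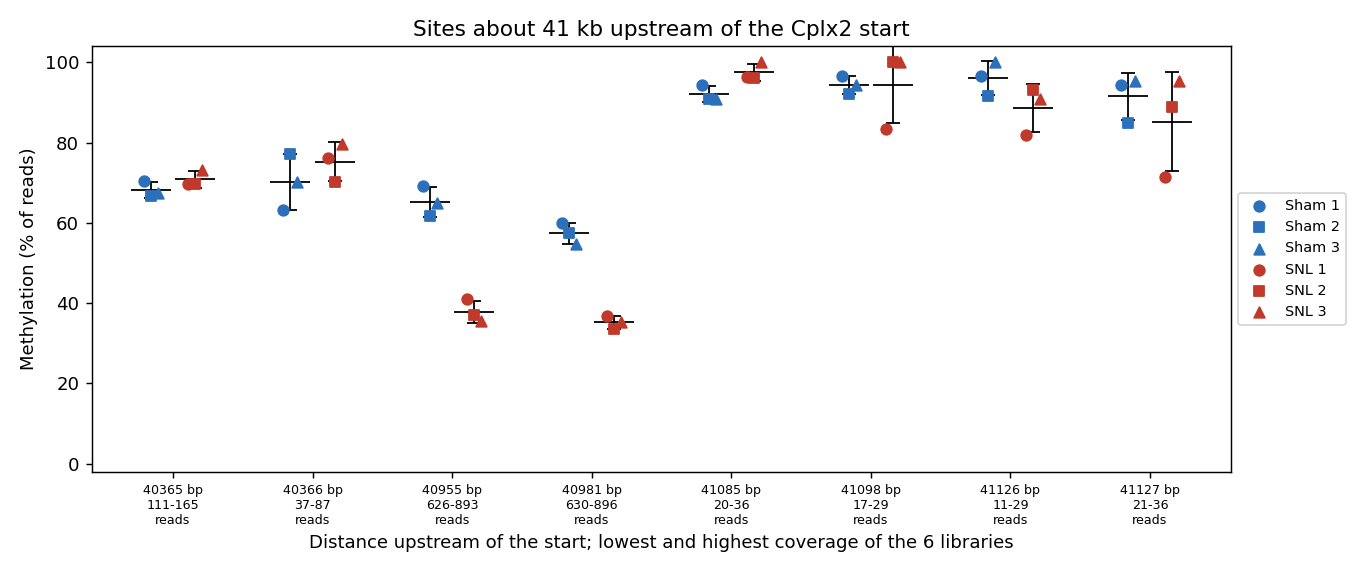
Methylation in percent of reads at the 8 sites from 40.4 to 41.1 kb upstream of the start, 1 marker per library, with the group mean and SD over 3 libraries as bars and the coverage under each site. The SNL libraries lie under 41% at the 2 deeply read sites, where the Sham libraries lie over 54%, and the groups share their range at most flanking sites.

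The pair was read far more deeply than its surroundings. Coverage was 845, 893 and 771 reads in SNL 1 to 3 and 745, 724 and 626 reads in Sham 1 to 3 at position 16363892, whereas the other 52 sites of the region had 10 to 171 reads with a median of 27. Of all 424646 sites, 0.514% had a lowest coverage of 626 reads or more. Scaled to 1000000 reads of nuclear CpG coverage, the site had 26.8, 26.1 and 26.3 reads in SNL and 23.2, 23.4 and 23.1 reads in Sham. The coverage was thus 1.14 times as high after SNL, with no overlap between the groups (exact two-sided permutation p = 0.1, the smallest that 3 libraries against 3 can give). Scaled coverage was higher in all SNL than in all Sham libraries at 4.56% of all sites and 4.9% of the annotated ones. The other 52 sites together had 1.03 times the Sham coverage after SNL, and their libraries overlapped (exact two-sided permutation p = 0.6). At this pair coverage was higher and methylation lower after SNL, and the part of coverage in the difference was not tested. Both CpGs had nearly the same number of reads in each library and lie within the length of a read, so they are not counted as independent of each other. Whether the reads at these CpGs, or at those 64.9 kb upstream, come from 1 place in the genome or from several near-identical copies was not tested, and each percent is given as the files assign it.

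**Figure D3:**
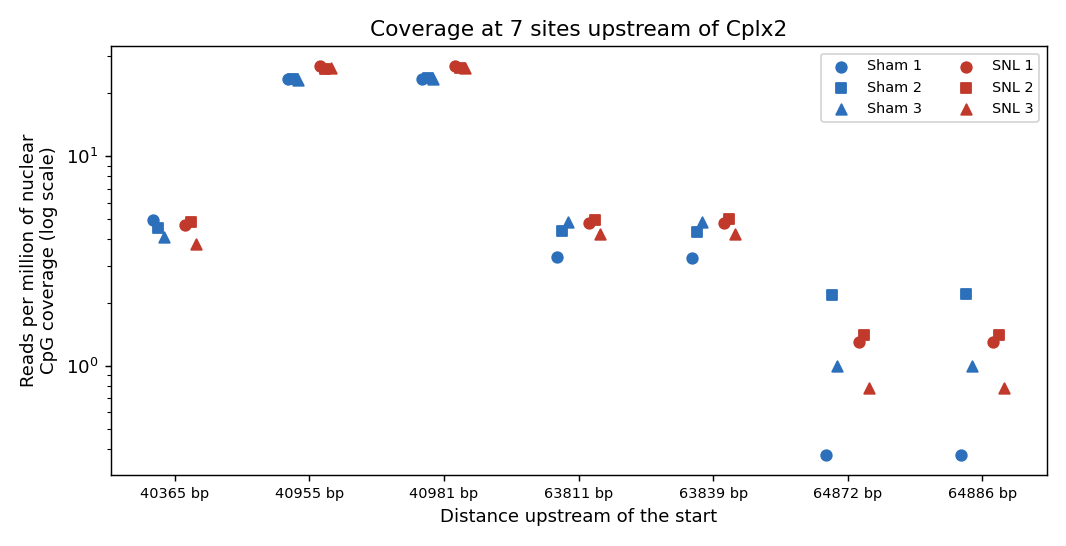
Coverage scaled to 1000000 reads of nuclear CpG coverage (log scale) at the 5 annotated Cplx2 sites and the 2 sites farthest upstream, by distance upstream of the start, with 1 marker per library. The 2 CpGs at 41 kb stand above all others and are the only ones of the 7 where all SNL libraries lie above all Sham libraries.

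A second unmethylated stretch lay 62.3 to 63.7 kb upstream. Its 6 sites averaged 10.1%, 9.44% and 7.84% in SNL 1 to 3 and 8.04%, 7.98% and 8.21% in Sham 1 to 3, so the groups overlapped. The level rose towards its far end, from 0.88% ± 1.52 and 2.90% ± 2.59 (SNL and Sham, SD over 3 libraries) at position 16385219 to 26.5% ± 5.3 and 28.8% ± 3.4 at position 16386606. Another 32 positions of the stretch had fewer reads. Of their read counts, summed over positions, 6.15% of 716 were methylated after SNL and 3.74% of 748 in Sham. The authors' deposited table marks the 2 annotated CpGs just beyond, 63.8 kb upstream, as the shore of a CpG island.

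Beyond that stretch methylation rose and then differed between the groups again. At the first shore CpG, position 16386748, methylation was 52.0%, 57.1% and 60.8% after SNL and 50.9%, 55.1% and 56.8% in Sham (106 to 170 reads). At the second, position 16386776 and 28 bp on, it was 80.3%, 85.4% and 81.6% against 87.6%, 89.6% and 92.4% (105 to 171 reads). The groups overlapped at the first and not at the second, where the difference was -7.46 points (SE 2.06). The authors' deposited table gives the second a q-value of 0.0431, and q-values of 1.99e-19 and 8.61e-33 for the pair at 41 kb, against 0.763 and 0.806 for the other 2 rows of Cplx2. Of all annotated sites in the authors' deposited table, 4.54% have a q-value under 0.05.

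The lowest SNL levels outside the unmethylated stretches were found 64.9 kb upstream, at 2 CpGs that are not in the annotated table. Position 16387809 read 31.7%, 22.9% and 21.7% in SNL 1 to 3 and 58.3%, 50.7% and 59.3% in Sham 1 to 3. Position 16387823, 14 bp on, read 17.1%, 20.8% and 21.7% against 75.0%, 38.2% and 51.9%. At both, all SNL libraries were below all Sham libraries, with differences of -30.7 points (SE 4.1) and -35.1 points (SE 10.8). As means over libraries these differences are larger than those at the pair 41 kb upstream, but as percents of summed reads they are -27.9 and -26.2 points, against -27.4 and -22.4 points at the pair. They rest on 41, 48 and 23 reads in SNL and 12, 67 and 27 reads in Sham at the first of the 2. The second had 41, 48 and 23 reads and 12, 68 and 27 reads, so these CpGs are not counted as independent of each other. Sham 1 holds the highest value of the second and also the fewest reads. Without Sham 1 the difference at position 16387823 was -25.2 points, and without Sham 2 it was -43.5 points. The next position listed in every library, 65.1 kb upstream, had 9 of 22 reads methylated after SNL and 13 of 18 in Sham, under the depth minimum of the region.

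**Figure D4:**
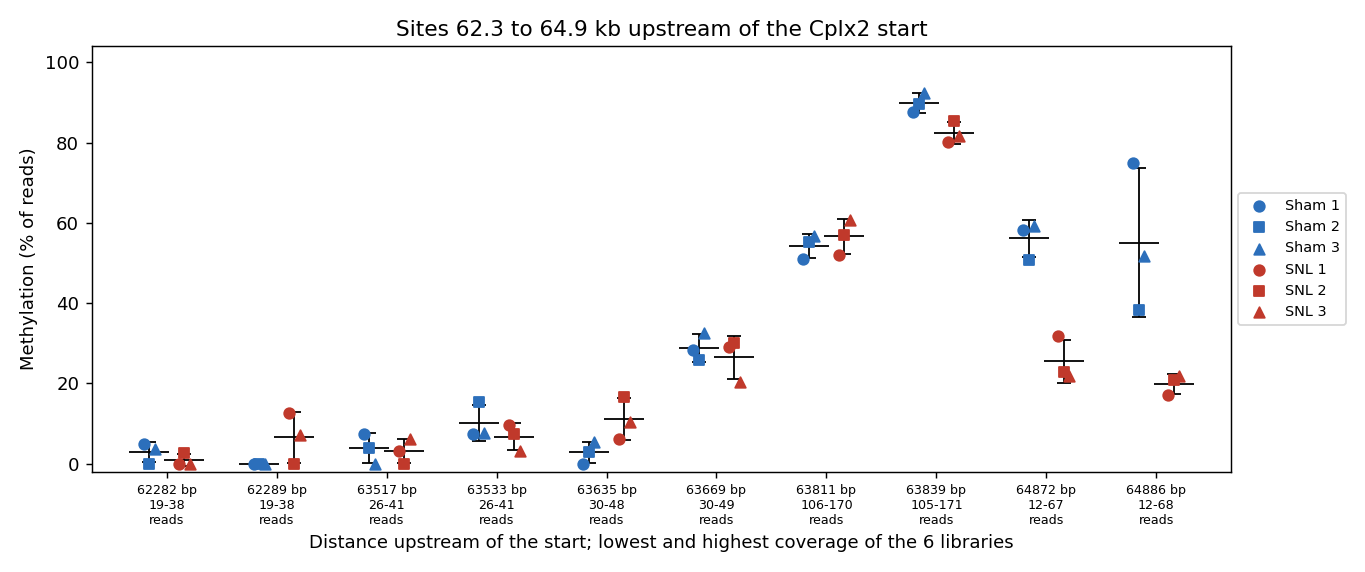
Methylation in percent of reads at the 10 sites from 62.3 to 64.9 kb upstream of the start, 1 marker per library, with the group mean and SD over 3 libraries as bars and the coverage under each site. Levels are near 0% at the left, rise at the island shore, and separate the SNL libraries (under 32%) from the Sham libraries (over 38%) at the last 2 sites.

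Over the whole region the sites moved in both directions. The mean was lower after SNL at 31 sites and higher at 22, where 53.7% of all sites of this depth were lower. The difference was under 10 points at 45 of the 54. In 8 sites all SNL libraries were below all Sham libraries and in 4 all were above, which is read against 6.62% and 3.59% of all sites. The 8 include the 2 CpGs at 41 kb and the 2 at 64.9 kb, which are not independent within each pair. The highest gain was at position 16375762, 52.8 kb upstream, with 95.1%, 94.9% and 93.1% after SNL and 62.5%, 84.2% and 83.9% in Sham (24 to 41 reads). The gain of 17.5 points there was 10.3 points without Sham 1. Without the pair at 41 kb, the other 52 sites averaged 54.8% ± 0.1 after SNL and 56.2% ± 0.8 in Sham (SD over 3 libraries), a difference of -1.48 points. Over all sites of this depth the difference was -0.84 points. The small value of the 52 sites depends on the sites counted. It was -0.22 points when the 2 sites at 64.9 kb were also left out and 1.65 points, a gain, over the sites with 20 reads or more. In a fit of all 424646 sites with a moderated quasi-likelihood logistic test, 3 of the 54 sites were called at an adjusted p under 0.05, all lower (0.399% of all sites were called, 0.315% lower). They were positions 16363892, 16363918 and 16387809. Among the 5 annotated sites, fitted with the 32674 of that table, 2 were called lower, beside 1.24% of all. Since the contrast chose the gene, nothing is read from these counts. Position 16387809 lost its call in each of the 6 fits without a library, and 2 sites were called in each. No site of the region was called with a replicate block, without moderation or by limma, and neither was any site of the genome. At an unadjusted p under 0.05 these fits had 5, 7 and 9 of the 54 sites, those that chose the gene included, beside 0.811%, 1.70% and 6.23% of all sites.

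Summed over its 5 annotated sites, Cplx2 methylation was 44.8%, 43.1% and 42.4% in SNL 1 to 3 and 65.6%, 62.0% and 62.8% in Sham 1 to 3. The summed coverage was 1630 to 2295, in which a read covering both CpGs of the pair counts at each. The sum is mostly reads of the pair at 41 kb. The unweighted mean of the 5 sites differed by -10.4 points, where the sum of reads differed by -19.97 points. The sum was called lower, as were 0.511% of all genes, from which again nothing is read, and it was not called without moderation. The 5 genes whose summed level was most like that of Cplx2 across the 6 libraries, by the root mean squared gap after centring each gene on its own mean, were Dhrs3 (1.69 points), Nubp1 (2.12), Ezr (2.16), Trim23 (2.58) and Aftph (3.13). Ezr and Trim23 had 1 annotated site each, Dhrs3 had 2, and Nubp1 and Aftph had 3 each. Dhrs3 encodes a retinal reductase and Ezr encodes ezrin, which ties actin to the membrane. Dhrs3 stood at 37.0%, 31.9% and 34.1% after SNL and 53.6%, 50.6% and 54.3% in Sham. Such a gap favours genes with a loss of like size, and 6 libraries set its precision.

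The region's neighbours were measured at the annotated sites, which have 100 or more reads in every library. Sites as shallow as those at 64.9 kb are not among these, so how far the differences reach cannot be read from them. Within 500 kb on either side of the region, 42 annotated sites were assigned to 11 other genes, among them Thoc3, Cltb (a clathrin light chain), Faf2, Sfxn1 and Drd1 (the D1 dopamine receptor). None of the 42 sites was called in the moderated logistic test of the annotated sites (lowest adjusted p = 0.104, 2 at an unadjusted p under 0.05), where 1.42% of all annotated sites were called and 13.1% had an unadjusted p under 0.05. Their differences ranged from -5.98 to 5.96 points. The nearest annotated sites upstream of Cplx2, assigned to NM_012965, lay at positions 16469040 and 16469138, and the sum of that gene was 77.9% ± 5.4 after SNL and 81.5% ± 0.8 in Sham (SD over 3 libraries; adjusted p = 0.716, moderated logistic test). On the other side, the 3 sites of the noncoding gene Lnc012 summed to 64.6% ± 3.0 and 65.5% ± 1.5 (adjusted p = 0.907, moderated logistic test).

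Of the other complexins only Cplx1 was in the annotated table, with 4 sites in a CpG island of its promoter about 1 kb upstream of the start (chromosome 14, positions 1731364 to 1731389). Its summed methylation was 1.80%, 1.96% and 1.83% in SNL 1 to 3 and 1.61%, 1.68% and 1.59% in Sham 1 to 3. Coverage was 9221 to 13398 summed over the 4 sites, and 2303 to 3356 reads at single sites. The groups did not overlap, but the difference was 0.23 points and was not called (adjusted p = 0.392, moderated logistic test over 8016 genes). The Cplx1 promoter and the stretch inside the Cplx2 start were thus both nearly unmethylated, and Cplx3 and Cplx4 had no site in the annotated table.

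The partners of complexin in vesicle release were compared as groups, with read counts summed per gene. Of 74 genes on 6 lists, 50 had annotated sites (186 in all). None of the 50 was called (moderated logistic test), where 0.536% of all 8016 genes were called. At an unadjusted p under 0.05 that test had 9 lower and 0 higher, where 11.8% of all genes were lower and 1.91% higher. With limma 6 were lower and 0 higher at that level, beside 858 lower and 178 higher of all 8016 genes. The median difference of the 50 was -1.38 points, and 76.0% had a lower mean after SNL, beside -0.79 points and 66.9% over all genes. Among the SNARE proteins 6 of 12 genes were measured. Snap47, a SNAP-25 relative, stood at 47.1% ± 0.8 after SNL and 53.0% ± 0.3 in Sham, and Vamp3 (cellubrevin) at 75.9% ± 1.1 and 76.8% ± 2.1 (SD over 3 libraries; adjusted p = 0.207 and 0.787, moderated logistic test). Of the 3 measured genes of SNARE disassembly, Nsf, the ATPase that takes the complex apart, stood at 91.8% ± 2.0 and 93.4% ± 0.8, Napg at 92.8% ± 0.9 and 93.4% ± 0.2, and Napa at 62.4% ± 3.6 and 64.3% ± 1.4.

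Among the synaptotagmins 11 of 13 were measured, with a median difference of -0.76 points. Syt1, the calcium sensor of fast release, stood at 63.6% ± 0.5 after SNL and 67.6% ± 2.2 in Sham, and Syt13 at 78.3% ± 1.3 and 81.4% ± 1.5 (SD over 3 libraries; adjusted p = 0.310 and 0.305, moderated logistic test). Syt8 had 86.0% ± 1.0 and 83.7% ± 2.4. The 22 of 29 measured priming and docking genes had the lowest median of the lists with more than 3 measured genes, -2.03 points, with 19 lower and 3 higher. Stxbp5 (tomosyn, which competes for syntaxin) stood at 82.6% ± 0.6 and 85.0% ± 0.3, Rph3a (rabphilin, a Rab3 effector) at 71.2% ± 1.0 and 77.7% ± 1.9, and Pclo (piccolo, a scaffold of the active zone) at 66.8% ± 0.3 and 71.8% ± 2.6 (adjusted p = 0.153, 0.165 and 0.179, moderated logistic test). Rph3a had 1 annotated site, Stxbp5 had 8 and Pclo had 7. Of the 186 sites, 1 was called, where 1.42% of all annotated sites were. It lay in an intron of the active zone gene Erc2, 6.7 kb from its start (chromosome 16, position 2939480), at 71.6% ± 2.9 against 79.0% ± 1.7 (adjusted p = 0.0236, moderated logistic test). The 7 of 13 measured vesicle membrane genes had a median of -0.92 points. Slc17a6, the vesicular glutamate transporter VGLUT2, stood at 83.1% ± 2.7 and 86.1% ± 1.5, Syn3 (a synapsin) at 80.6% ± 2.9 and 83.0% ± 3.4, and Sv2a at 92.5% ± 1.9 and 93.4% ± 1.0.

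**Figure D5:**
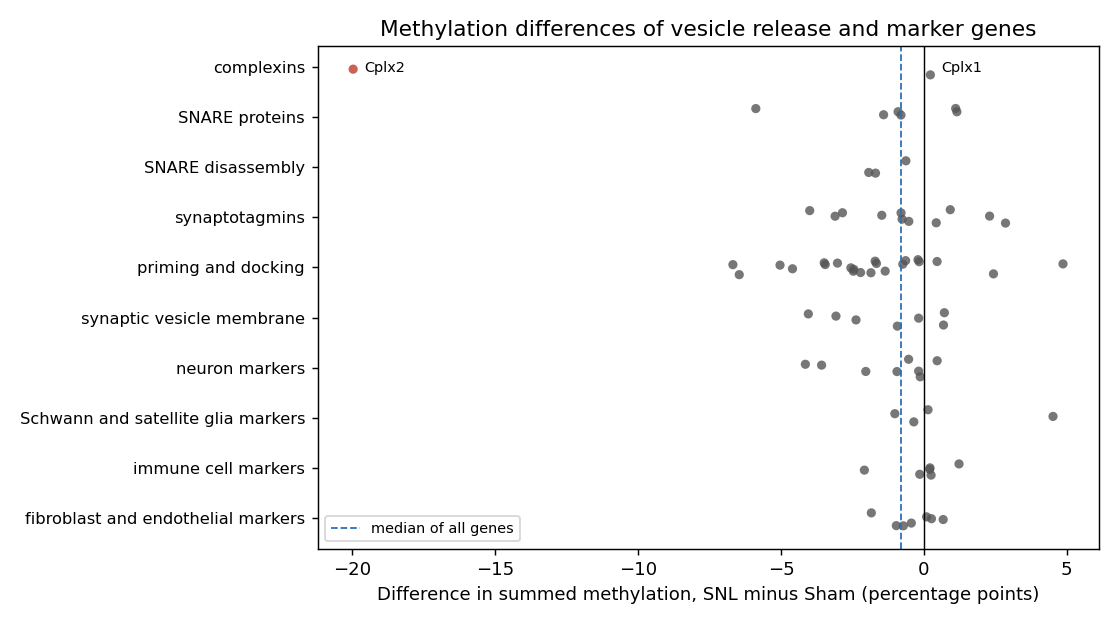
Difference in summed methylation, SNL minus Sham in percentage points, of each measured gene (1 point per gene) on the 6 vesicle release lists and the 4 cell marker lists, with the median of all 8016 genes as a dashed line. Cplx2, which was chosen for its difference, stands at -19.97 points, and every other gene drawn lies between -6.68 and 4.88 points.

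Genes that mark the cells of a ganglion were measured in the same way. None of them was called by the moderated logistic test, where 0.536% of all genes were called. The median differences, beside -0.79 points over all genes, were -0.73 points for 8 of 13 neuron markers (2 lower at an unadjusted p under 0.05, as were 11.8% of all genes), -0.10 for 4 of 10 Schwann and satellite glia markers, 0.21 for 6 of 12 immune markers and -0.43 for 7 of 8 fibroblast and endothelial markers (0 at that level). The neuron markers with the lowest p were Nefl and Nefh, neurofilament subunits, at 72.4% ± 1.1 against 76.5% ± 1.8 and 87.7% ± 2.3 against 91.3% ± 1.0 (SD over 3 libraries; adjusted p = 0.162 and 0.195, moderated logistic test), followed by the sodium channel gene Scn10a at 84.0% ± 0.6 against 86.0% ± 1.5. Methylation at these sites does not count cells. A change in the mix of cells and a change within cells cannot be told apart in bulk tissue, and the part of either in the Cplx2 differences was not tested.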

How the data were processed

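DNA methylation was measured by RRBS with single-end reads in 6 libraries of rat DRG, 3 SNL and 3 Sham. The submitters' processing notes name Bismark 0.18.1, Bowtie2, methylKit 1.3.3 and the build rn4, whereas a human build stands in the labels' extract protocol. Positions are given as rn4. The deposited library files hold, for each CpG cytosine, its coverage as a count and the percent of C and of T, per the file headers. The deposited annotated table holds each library's percent, a p-value and q-value from the authors, and the distance to the nearest start and other annotation. How that test was set is not stated in those sources.

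Methylated counts were recovered as coverage times percent. Library totals of CpG coverage, in which a read counts once at each CpG it covers, were 27247702 to 34293779. Mitochondrial sites were left out, and strand is not recorded. A logistic regression of the counts on group was run on all nuclear sites with 10 or more reads in every library, on the 32674 annotated sites, and on counts summed per gene (8016 genes). Overdispersion was moderated with limma's squeezeVar, leaving out sites at 0% or 100% in every library, with a floor of 1. At 10 reads the prior spread took all the weight, so all sites shared 1 overdispersion. P-values of a two-sided F test were adjusted (Benjamini-Hochberg, threshold 0.05), and the procedure was tested on simulated data. Accessions of 7622 of 8123 transcripts matched a symbol in RefSeq's GRCr8 table. Per list the 3 genes with the lowest p were named (1 of them is not reported here), with the 5 genes most like Cplx2 and the genes within 500 kb. The members and lists were chosen with earlier results of these data known. The sites at 64.9 kb, Thoc3, Cltb, Faf2, Sfxn1, Drd1, the site of the highest gain and those in the gene body were picked after their values were seen. Alternatives were other coverage minimums, library offsets, a replicate block, no moderation, limma on logit values (pseudocount 1) and leaving out each library. Replicates of a group differed by more than sampling noise (mean squared z 1.57 to 2.65 at the annotated sites). Fits used limma 3.58.1 in R 4.3.3, with files read by the R package data.table (1.17.8). Descriptions used pandas 2.3.3 and numpy 2.4.6 under Python 3.11.15, and plots matplotlib 3.10.9.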

Additional observations from a re-analysis of the deposited data

How the results depend on the processing

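For the 14 sites that are annotated or had groups without overlap, among them each site given library by library, 9 alternatives were run. They were leaving out each library in turn, libraries centred on their mean, a replicate block and the percent of summed reads. The differences kept their direction and moved by less than the larger of the 2 group SDs. Only centring and summed reads could have moved them further. Leaving out 1 of 3 libraries cannot shift a group mean by a whole SD, nor turn the direction where the groups do not overlap. The block leaves a mean difference unchanged. Without 1 library the differences ranged from -29.2 to -25.4 points at 16363892, from -23.5 to -20.9 at 16363918 and from -43.5 to -25.2 at 16387823, and that of the summed Cplx2 reads from -20.7 to -18.9. The mean of the 5 annotated sites gave -10.4 points in place of -19.97. The mean difference of the other 52 sites was -1.48 points. It was 1.65 at 20 reads or more, -0.38 at 50 or more, -0.64 with libraries centred and -0.22 without the 2 sites farthest upstream (an alternative chosen after the data were seen), and -1.86 to -1.09 without 1 library. Fewer sites enter at a higher minimum. The 2 sites farthest upstream, with 12 reads in their shallowest library, are left out at 20 and at 50 reads. Otherwise the cause was not tested.

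The region had 3 calls and the genome 1693. Both counts were 0 with a replicate block, without moderation and with limma (3443, 7226 and 26436 sites of the genome at an unadjusted p under 0.05). The genome had 713 calls at 50 reads or more, 464 at 100 or more (also chosen after the data were seen) and 340 to 883 without 1 library. The cause was not tested. Of the 1693 calls 79.1% were lower, and 67.3% of 1445 with library offsets. The replicate numbers were not taken as pairs, and whether they are pairs is not given. Same-numbered libraries had correlations of their deviations of -0.05, 0.26 and -0.14, and differently numbered ones of -0.29 to 0.34. Deviations within a group of 3 are tied to each other, so these correlations cannot decide it. With the replicate block 10 of 8016 genes were called on summed reads, Cplx2 among them, against 43 without it. On summed reads without moderation 0 genes were called, and 3 to 74 without 1 library. None of the 50 vesicle release genes was called under any of the 10 alternatives run. Depth limits most of the region, where the median site had 18 reads in its shallowest library. The site at the minimum of 10 reads differed by 15.1 points, and the nearest under it, 2 sites with 8 reads, by 10.4 and 14.5 points.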
